A study of Homo sapiens with 2 samples.

Results

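A stretch of the long arm of chromosome 12, in band 12q13, was examined in 2 lung cancer cell lines. The stretch runs from 50353235 to 53810226 of hg19, a length of 3.46 Mb, and encloses the type II keratin genes. Its members were the genes with a coding (NM_) RefSeq transcript starting in this window, without the keratin genes and without GALNT6 and ITGB7. Of the 79 coding genes of the window, 27 were keratin genes and 2 were GALNT6 and ITGB7, which left 50 members among the 27685 genes listed. The window was chosen by the difference in expression between the same 2 libraries that are compared here, so these differences are a description of the block and no test was made of them.

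The data were 1 RNA-seq library of untreated H2087 cells and 1 of untreated H596 cells, both grown in RPMI medium with fetal bovine serum. H2087 and H596 are established human lung cancer cell lines, and the labels give lung adenocarcinoma for both. Values are FPKM, fragment counts scaled to transcript length and to the mapped fragments of the library, so levels of different genes can be compared per length. There are no replicates, so a difference between the libraries cannot be told apart from a difference between cultures or preparations. A 95% interval given with an FPKM is the Wilson interval of the count behind it and holds counting error alone. Estimated counts summed to 46961500 in H2087 and to 55387847 in H596.

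The libraries differed in lineage markers. Of 8 adenocarcinoma markers, NKX2-1, the lung and thyroid lineage factor, had 110 FPKM in H2087 and 0.508 in H596, NAPSA had 21.9 and 0.0645, and SFTA3 had 101 and 0.0304, while KRT7 had 791 and 608 and MUC1 had 86.0 and 102. FOLR1 had 5.11 and 3.44, SFTPB had 0.123 and 0, and SFTPC had counts of 0 and 2. Of 8 squamous markers, TP63, the basal and squamous lineage factor, had 0.183 in H2087 and 55.2 in H596, and 4 had a count of 0 in H2087 and 0 had such a count in H596. KRT5 had 0 and 106, KRT6A 1.48 and 53.7, DSG3 0 and 33.9, and TRIM29 0.0138 and 227. SOX2, at 39.1 and 56.5, was within 2-fold and made up most of the sum of its list in H2087. KRT14, at 0 and 1.33, and DSC3, with counts of 0 and 7, were low in both libraries. The summed FPKM of the squamous list was 40.8 in H2087 and 534 in H596, against 1114 and 714 for the adenocarcinoma list. The summed FPKM of 4 leukocyte markers was 0.421 in H2087 and 0.25 in H596, with PTPRC and CD3E at a count of 0 in both. Of 5 fibroblast markers, COL1A2 was at a count of 0 in both libraries, COL1A1 had 3.89 in H2087 and 0.916 in H596, and DCN had 0 and 9.77, with a summed FPKM of the list of 3.90 and 10.7. The part of this lineage difference in the results below was not tested.

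The block is defined by position and not by a shared function. Its genes encode transcription factors such as SP1, which binds GC-rich boxes in many promoters, and RARG, a nuclear receptor for retinoic acid. Others encode parts of large machines: EIF4B helps the eIF4A helicase to unwind messenger RNA for translation, PFDN5 belongs to the prefoldin chaperone that delivers actin and tubulin, SMARCD1 to the BAF chromatin remodeler, and RACGAP1 and ESPL1 (separase) act in cell division. The keratin genes in its midst, with KRT8 and KRT18 at the end next to EIF4B, encode the intermediate filaments of epithelial cells.

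Most expressed members had lower values in H596. With the mean FPKM of the libraries at 1 or more, 34 of the 50 members could be compared, and 16 could not. Of the 34, 14 were at least 2-fold lower in H596 on the log2(FPKM + 1) scale (background, 14.2% of the 13048 genes compared) and 1 was at least 2-fold higher (background, 18.2%). By any amount, 29 of the 34 were lower (background, 44.8%), and the other 5 were SMARCD1, DIP2B, METTL7A, RARG and SP1. For each of the 14, the exact 95% interval of the ratio of counts lay past 2-fold. The same contrast chose the window, and nothing is read from these shares. Among the 34, 31 had an FPKM of at least 1 in both libraries, and 3 passed the filter through 1 library. These 3 were SLC4A8 and POU6F1, high in H2087, and METTL7A, high in H596. The median difference, H596 minus H2087, was -0.69 over the 34 members, and 0.12 over all genes compared.

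**Figure D1:**
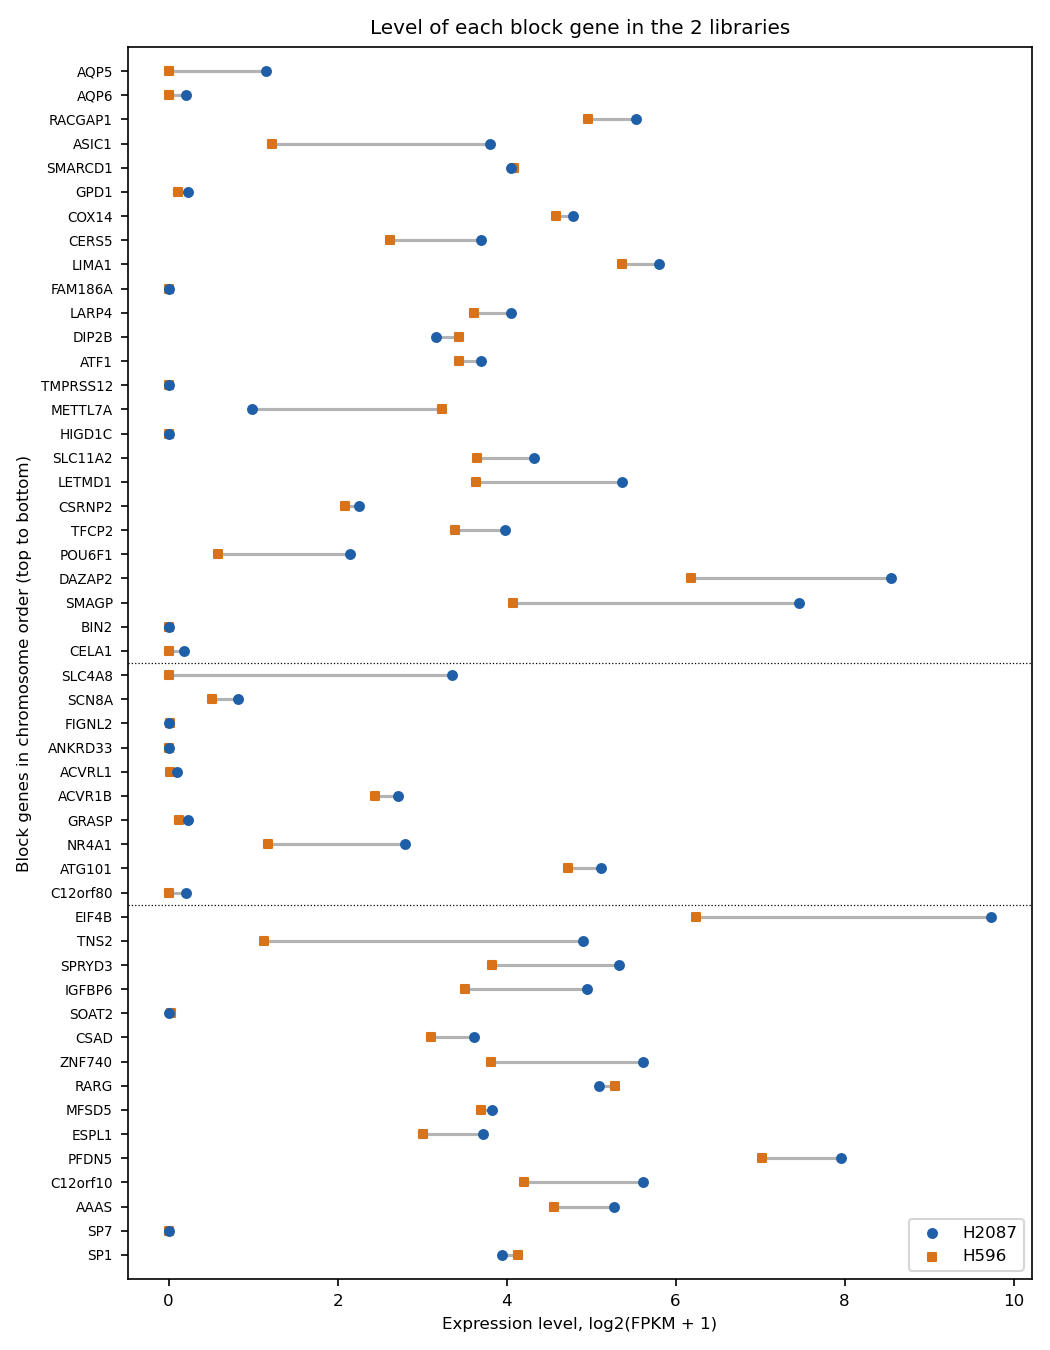
Level of each of the 50 block genes as log2(FPKM + 1), in chromosome order from top to bottom, with a circle for the H2087 library and a square for the H596 library. Dotted lines mark where GALNT6 and the keratin genes from KRT7 to KRT18 were left out, and the place of KRT80, before C12orf80, is not marked. EIF4B had the highest value in H2087, and METTL7A was the gene with the longest line towards a higher value in H596.

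At the edges of the window, the first member was AQP5, at 50355279, and the last was SP1, which ends at 53810226. AQP5, a water channel of airway glands and alveolar type 1 cells, had 1.23 FPKM in H2087 (95% interval, 1.02 to 1.48) and a count of 0 in H596, at least 42.5-fold lower with 3 counts taken as the limit that a count of 0 allows. Its mean was below the filter. SP1 had 14.5 FPKM in H2087 and 16.5 in H596. Just outside, AQP2 had a count of 0 in both libraries, and AMHR2 had 17 counts in H2087 and 0 in H596. The nearest neighbours that could be compared were BCDIN3D before the block, with FPKM values of 1.19 and 2.34, and PRR13 after it, with 166 and 51.8.

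The members lay in 3 groups along the chromosome. Before GALNT6 there were 25 members from AQP5 to CELA1, of which 17 were compared, with a median difference of -0.57. From SLC4A8 to C12orf80, between GALNT6 and KRT7, there were 10 members, of which 4 were compared, with a median of -0.999. The keratin gene KRT80 lies within this stretch, before C12orf80, and the other keratin genes lie after it. After the keratin genes there were 15 members from EIF4B to SP1, of which 13 were compared, with a median of -0.93. Members at least 2-fold lower were present in each group, with 6, 2 and 6 genes. The 7 members with the lowest differences lay in these runs: TNS2 and EIF4B next to KRT8 and KRT18, SMAGP, SLC4A8 and DAZAP2 on both sides of GALNT6, and ASIC1 and ZNF740 further away. The left-out genes beside them were also lower: GALNT6 had 214 FPKM in H2087 and 0.591 in H596, KRT8 had 2493 and 536, and KRT18 had 3607 and 234. Other keratin genes went either way. Of the 13 compared, 8 were at least 2-fold lower in H596 (background, 14.2%) and 3 higher (background, 18.2%). Among those with higher values in H596, KRT5 had 0 and 106, KRT6A had 1.48 and 53.7, and KRT4 had 455 and 860, within 2-fold. ITGB7 had 0.187 and 0.175.

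**Figure D2:**
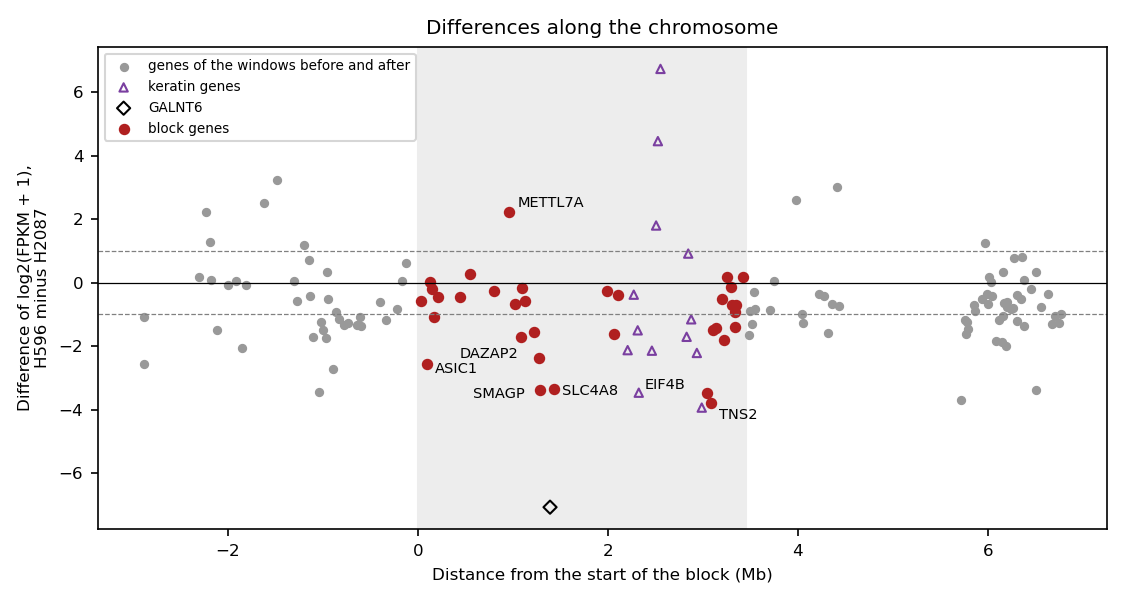
Difference of log2(FPKM + 1), H596 minus H2087, against distance in Mb from the start of the block, for genes whose mean FPKM reached 1. Red points are block genes, open triangles keratin genes, the diamond GALNT6 and grey points genes of the equally long windows before and after, and the shaded span is the block. Block genes range from -3.78 (TNS2) to 2.24 (METTL7A), and genes outside the block also lie mostly below 0.

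The lower values did not begin or end at the block. In the window of the same length before it, from 46896243 to 50353234, the median difference was -0.72 over 38 genes. There, 17 (44.7%) were at least 2-fold lower and 5 (13.2%) higher. In the window after it, from 53810227 to 57267218, the median was -0.78 over 57 genes, with 20 (35.1%) lower and 3 (5.26%) higher. These shares were 41.2% and 2.94% in the block, 27.7% and 7.88% over the rest of chromosome 12, and 14.2% and 18.2% over all genes compared. Over the 571 compared genes of the rest of chromosome 12, both windows included, the median was -0.45, and over the 476 outside the windows it was -0.41. The quartiles of the block, -1.60 and -0.27, can be set beside -1.34 and 0.07 before it and -1.24 and -0.35 after it. The median of the block lay within 0.1 of those of its flanks, and nothing in this measure sets the block apart from them.

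**Figure D3:**
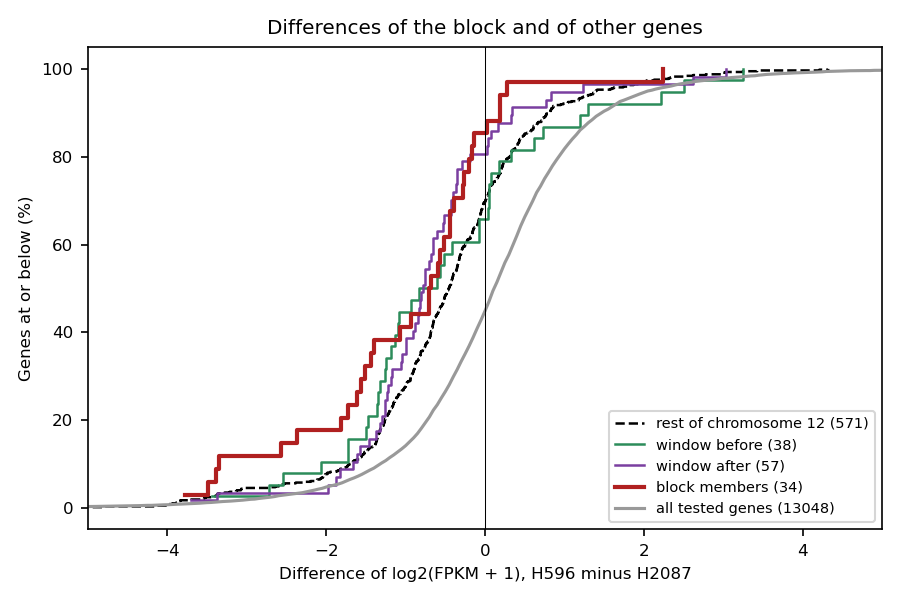
Share of genes (%) with a difference at or below the value on the horizontal axis, which is H596 minus H2087 in log2(FPKM + 1). Lines are the 34 block genes, the windows before (38 genes) and after (57), the rest of chromosome 12 with these windows included (571) and all 13048 genes compared. The block and flank lines cross and rise to the left of the line of all genes.

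EIF4B (gene 1975, 53400042 to 53435999, plus strand) held the most counts of the block. Its FPKM was 849 in H2087 (95% interval, 845 to 853) and 74.9 in H596 (95% interval, 73.8 to 76.0), an 11.3-fold lower value from 164454 and 17233 counts. By FPKM it ranked 81 of all listed genes in H2087 and 908 in H596. It made up 36.9% of the summed FPKM of the members in H2087 and 11.1% in H596. The sum over the members was 2302 in H2087 and 673 in H596, and without EIF4B it was 1453 and 598. Of all genes compared, 162 had a difference as low as that of EIF4B or lower, and among the 704 genes that reached 100 FPKM in H2087 there were 21. In H596 it was above all other members except PFDN5.

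At an FPKM of at least 100, the block had 4 members of 50 in H2087 (background, 2.54% of all listed genes) and 1 in H596 (background, 2.3%). The listed genes include noncoding genes and the members do not, so these sets are unlike and no excess is read from them. The 4 were EIF4B, DAZAP2, PFDN5 and SMAGP. PFDN5 (gene 5204), the prefoldin subunit, had 247 FPKM in H2087 (95% interval, 242 to 252) and 129 in H596 (95% interval, 125 to 132), and was the member past this level in both. DAZAP2 (gene 9802, 51632508 to 51640501, plus strand), a small proline-rich adaptor protein, had 373 FPKM in H2087 and 71.7 in H596, 5.21-fold lower. SMAGP (gene 57228, 51639133 to 51664202, minus strand), a small glycoprotein of epithelial cell contacts, had 175 in H2087 and 15.8 in H596, 11.1-fold lower. The listed ends of DAZAP2 and SMAGP overlap on opposite strands, and since it is not stated whether strand was used in counting, reads in the overlap cannot be assigned with certainty. The main DAZAP2 transcript, NM_014764, ends before the overlap, at 51637717, and had 309 FPKM in H2087 and 59.4 in H596.

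Among the cytoskeletal and chromatin members, 4 of 5 were compared, with 1 lower and 3 within 2-fold. For this and the following groups by role, the background was 14.2% lower and 18.2% higher, and groups of this size give no share that can be set against it. TNS2 (gene 23371, 53440810 to 53458162, plus strand), a tensin that links integrin adhesions to actin, had 29.0 FPKM in H2087 (95% interval, 28.4 to 29.7) and 1.18 in H596 (95% interval, 1.06 to 1.32), 24.6-fold lower, with the lowest difference of the block on the log2(FPKM + 1) scale, -3.78. TNS2 overlaps SPRYD3 by its end and the noncoding LOC283335 by its start. LIMA1, the actin-binding protein EPLIN, had FPKM values of 54.9 and 40.1, and DIP2B had 7.93 and 9.83. SMARCD1, the BAF subunit, had 15.6 in H2087 (95% interval, 15.0 to 16.2) and 15.97 in H596 (95% interval, 15.4 to 16.5). These intervals overlap, and SMARCD1 was the 1 compared member whose interval for the ratio of counts held 1. Its difference of 0.03 became -0.09 after centring on the median of all genes. The fifth, BIN2, had a count of 0 in both libraries.

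Of the 9 transcription factors, 8 were compared, with 3 lower and 5 within 2-fold. ZNF740, a zinc finger protein, had 48.2 FPKM in H2087 and 13.0 in H596, 3.70-fold lower. NR4A1, an orphan nuclear receptor and immediate early gene, had 5.93 and 1.27, 4.68-fold lower. POU6F1, a POU homeodomain factor, had 3.44 and 0.502, 6.87-fold lower, but its difference was -0.87, within 2-fold, when its highest transcript was taken in place of the gene. SP1, the GC box factor, had 14.5 (95% interval, 14.1 to 14.8) and 16.5 (95% interval, 16.2 to 16.9), ATF1, of the CREB family, had 11.95 and 9.79, and TFCP2, of the grainyhead family, had 14.7 and 9.47. RARG had 33.2 (95% interval, 32.3 to 34.2) and 38.1 (95% interval, 37.1 to 39.0). CSRNP2 had 3.76 and 3.25, and SP7, the osteoblast factor, was at a count of 0 in both.

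The members of the translation, folding and nuclear transport group were all lower in H596 by some amount, with EIF4B past 2-fold and the other 3 within it. LARP4, which binds poly(A) tails, had FPKM values of 15.6 and 11.2. AAAS, the nuclear pore protein aladin, had 37.5 and 22.6. PFDN5 was 1.92-fold lower, just within the limit, and at -1.05 past it after centring or with TMM scaling.

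Both cell division genes were lower in H596 and within 2-fold. RACGAP1, a subunit of centralspindlin, had 45.3 FPKM in H2087 and 30.2 in H596. ESPL1, the protease that cleaves cohesin at anaphase, had 12.2 and 7.04.

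Of the receptors and secreted or membrane proteins, 3 of 7 were compared, with SMAGP and IGFBP6 lower and ACVR1B within 2-fold. IGFBP6, which binds IGF-II, had 29.9 FPKM in H2087 and 10.4 in H596, 2.88-fold lower. ACVR1B, the activin receptor ALK4, had 5.56 and 4.42, whereas ACVRL1, the related endothelial receptor ALK1, had 14 counts in H2087 and 2 in H596. The protease genes CELA1 and TMPRSS12 had 6 and 0 counts in H2087 and 0 in H596. GRASP, a scaffold protein, had 17 and 10 counts.

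Of the channels and transporters, 4 of 7 were compared, with 2 lower and 2 within 2-fold. SLC4A8 (gene 9498, 51785101 to 51909547, plus strand), a sodium-driven bicarbonate transporter, had 9.21 FPKM from 4303 counts in H2087 and a count of 0 in H596, at least 1692-fold lower with 3 counts taken as the limit. The exact 95% lower limit of its ratio of counts, which also holds the error of the H2087 count, was 1375-fold. Its listed span and that of GALNT6, which was also near 0 in H596, share 100 bases. ASIC1, an acid-sensing channel, had 12.9 in H2087 (95% interval, 12.4 to 13.4) and 1.33 in H596 (95% interval, 1.19 to 1.49), 9.68-fold lower. SLC11A2, the iron transporter DMT1, had 19.1 and 11.5, and MFSD5 had 13.2 and 11.9. The sodium channel SCN8A had 0.771 and 0.428, and AQP6 had 20 counts in H2087 and 0 in H596.

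Of the mitochondrial and metabolic members, 6 of 9 were compared, with 3 lower, 1 higher and 2 within 2-fold. METTL7A (gene 25840, 51318534 to 51326300), a methyltransferase of the endoplasmic reticulum and lipid droplets, was the member that was higher in H596, with 0.989 FPKM in H2087 (95% interval, 0.848 to 1.15) and 8.41 in H596 (95% interval, 8.01 to 8.83), 8.50-fold. LETMD1, a mitochondrial protein, had 40.2 and 11.5, 3.50-fold lower, and overlaps CSRNP2. C12orf10, a nuclease also named MYG1, had 47.8 and 17.5, 2.73-fold lower. CERS5, a ceramide synthase, had 11.9 and 5.16, 2.31-fold lower, a call lost in TPM (-0.97) and by highest transcript. COX14, which assists assembly of cytochrome c oxidase, had 26.6 and 22.9, and CSAD, of taurine synthesis, had 11.3 and 7.62. GPD1 had 26 and 15 counts, SOAT2 had 0 and 2, and HIGD1C had 0 in both.

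In the last group, ATG101, a subunit of the autophagy-initiating ULK1 complex, had 33.6 FPKM in H2087 and 25.5 in H596. DAZAP2 was given above, and SPRYD3 had 39.2 and 13.2, 2.98-fold lower. FIGNL2, ANKRD33, FAM186A and C12orf80 had at most 10 counts in either library. Of the 16 members that were not compared, 6 had a count of 0 in both libraries, and the highest value among the others was the AQP5 value in H2087.

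RARG kept a similar total in both libraries, but the listed transcript starts that made it up differed. RARG (gene 5916, 53604350 to 53626040) is read from the minus strand, and its 5 listed transcripts begin at 2 places 11843 bases apart. The upstream start, at 53626040, gives the receptor form known as RAR gamma 1 (NM_000966) and the downstream start, at 53614197, the form known as RAR gamma 2 (NM_001042728), which differ in their first residues. Transcripts of the upstream start had a summed FPKM of 11.0 in H2087 and 36.0 in H596. Transcripts of the downstream start had 22.2 in H2087 and 2.02 in H596. The downstream start thus held 66.9% of the RARG value in H2087 and 5.32% in H596, from 2926 and 314 estimated counts. On the log2(FPKM + 1) scale the upstream start differed by 1.63 and the downstream start by -2.94, against 0.19 for the whole gene.

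This measure, the share of each start, was not used to choose the window, but was taken up after the values were seen. Among genes with starts over 500 bases apart and an FPKM of at least 10 in both libraries, a share shifted by at least 50 percentage points in 15 of 926 (1.62%), and RARG had the 5th highest shift, of 61.6 points. The median shift was 3.35 points. Of the block, 4 genes met these limits, and the shifts of the other 3 were 13.996 points in LIMA1, 12.4 in SLC11A2 and 3.26 in MFSD5. Reads of exons that the transcripts share are divided between them by estimation, and the error of that division is not in these values.

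The sequence before each RARG start is shown because the starts differed in use. Each is the 150 bases before the first transcribed base in GRCh37, the build named hg19 in the tables, on the minus strand, with the GC box, GGGCGG or its complement CCGCCC, in capitals. The sequence before the upstream start, chr12:53626041-53626190, has 80.0% G and C and 5 GC boxes, of which the first pair overlaps. The sequence before the downstream start, chr12:53614198-53614347, has 55.3% G and C and 0 GC boxes. For comparison, the same stretch is given for EIF4B (chr12:53399892-53400041) and DAZAP2 (chr12:51632358-51632507), members with a high level in H2087, both on the plus strand and each with 1 GC box.
RARG upstream start: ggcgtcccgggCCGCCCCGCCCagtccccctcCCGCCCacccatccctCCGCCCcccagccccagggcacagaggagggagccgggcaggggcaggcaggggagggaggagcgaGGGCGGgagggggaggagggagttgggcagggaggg
RARG downstream start: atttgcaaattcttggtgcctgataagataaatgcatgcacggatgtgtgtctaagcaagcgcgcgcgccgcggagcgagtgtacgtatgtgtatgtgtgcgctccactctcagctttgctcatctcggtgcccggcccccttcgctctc
EIF4B: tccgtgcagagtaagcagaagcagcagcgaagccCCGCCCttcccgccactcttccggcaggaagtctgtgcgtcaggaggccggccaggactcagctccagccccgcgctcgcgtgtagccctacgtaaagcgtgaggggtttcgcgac
DAZAP2: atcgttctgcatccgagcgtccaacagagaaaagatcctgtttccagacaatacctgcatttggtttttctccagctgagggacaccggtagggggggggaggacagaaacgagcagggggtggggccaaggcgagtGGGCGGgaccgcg

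These letters were also sought, on both strands, in the RefSeq promoter windows of GRCh38.p14, which run from 250 bases before to 50 after a start. Windows were found for 39 of the 50 members, and for 33 of the 34 compared. The GC box was in 25 of the 33 (75.8%), against 77.4% of the 10325 compared genes with a window and 48.3% of all 27305 genes with one. It was in 2 of the 6 members with a window that were not compared, in 12 of the 14 that were lower and in 13 of the 19 other compared members. Against the compared genes, the CCAAT box, CCAAT, was in 13 of the 33 (39.4%) and 43.5%, and TATAAA in 3 (9.09%) and 8.51%. These shares over all genes with a window were 39.7% and 13.99%. The CREB family site TGACGTCA was in 1 (3.03%), against 3.80% of compared and 2.25% of all genes, the retinoid receptor motif AGGTCA in 3 (9.09%), against 13.4% and 16.5%, the AP-1 site TGANTCA in 1 (3.03%), against 6.91% and 9.37%, and the E box CACGTG in 5 (15.2%), against 12.6% and 8.77%. The median G and C content of the windows was 63.7% in the compared members, 54.3% in the members not compared, 64.9% in the compared genes and 58.3% in all genes. A match is a run of letters and not a shown binding site.

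EIF4B also had an uneven change among its transcripts. NM_001300821 had 469 FPKM in H2087 and 10.6 in H596, NM_001330654 had 142 and 0, and NM_001417 had 238 and 64.2. All 3 were lower in H596, and NM_001417 made up 28.0% of the gene in H2087 and 85.8% in H596. The 3 transcripts share their listed start and end and differ by 132 bases or fewer in length. The error of the division of reads between them is not in these values.

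**Figure D4:**
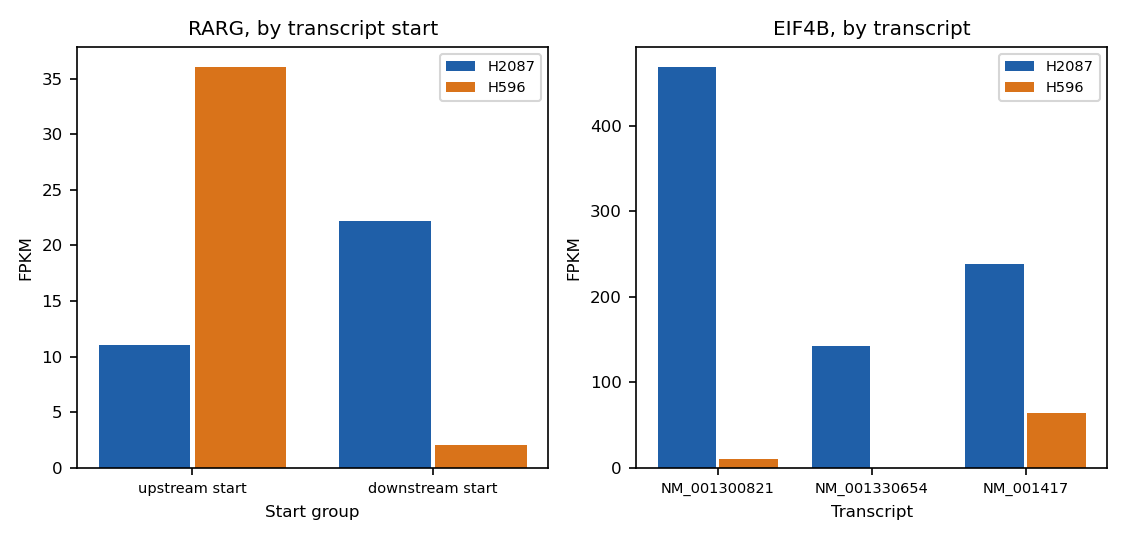
FPKM (vertical axis) of RARG summed by transcript start, left, and of EIF4B by transcript, right, with 1 bar for each library. In RARG the upstream start is higher in H596 (36.0) and the downstream start higher in H2087 (22.2), while each EIF4B transcript is higher in H2087.

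In most other members the main transcript was shared. Of 16 members with several listed transcripts and an FPKM of at least 10 in both libraries, 13 had the same leading transcript in both, and EIF4B, RARG and SLC11A2 did not. In DAZAP2 the leading transcript held 82.6% and 82.9%, in SP1 84.8% and 88.6%, and in SMARCD1 94.6% and 94.7%. CERS5, below that level in H596, had its transcript NM_147190 at 3.28 in H2087 and 4.47 in H596, while NM_001281731 had 3.11 and 0 and NM_001331072 had 3.002 and 0. By this estimated division of reads, the CERS5 difference lay in its other listed transcripts, which share their listed start and end with NM_147190. The error of that division is not in these values.

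Products of the block work with proteins encoded elsewhere, and 98 such partner genes in 18 lists were looked up. Of these, 87 could be compared, of which 11 were at least 2-fold lower in H596 (12.6%, against 14.2% of all genes compared), 14 higher (16.1%, against 18.2%) and 62 within 2-fold, with a median difference of 0.00. Both shares were near the background. Encoded elsewhere means outside the block: CIT, ULK1 and SMARCC2 also lie on chromosome 12, and SMARCC2 lies in the window after the block. In the list of EIF4B, the helicase EIF4A1 had FPKM values of 896 and 342, and EIF4A2 had 294 and 221. EIF4E had 6.57 and 4.27, EIF4G1 173 and 153, and EIF4H 165 and 112. All 5 were lower in H596, with differences from -1.39 to -0.18, against -3.49 in EIF4B. The same contrast chose the window and not the partners, so nothing is read from this gap. The prefoldin partners of PFDN5 differed by -1.12 (PFDN2), -0.83 (PFDN1), -0.17 (PFDN6), 0.34 (PFDN4) and 0.39 (VBP1), and PFDN5, at -0.93, lay within their range. The 12 BAF partners of SMARCD1 had a median of 0.11, with 1 higher, SMARCA2, at 4.52 and 15.2, and 11 within 2-fold.

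Some relatives of block genes went the other way. TNS3, another tensin, had 16.4 FPKM in H2087 and 69.2 in H596, and TNS4 had 5.98 and 13.1, opposite in direction to TNS2, while TNS1 had 0.167 and 0.0521. NR4A2 had 0.581 and 8.33, opposite to NR4A1, and NR4A3 had 8 and 42 counts. Among the other IGF-binding proteins, IGFBP3 had 14.3 and 951, IGFBP7 had 0.449 and 76.9, and IGFBP5 had 0.187 and 3.14, all higher in H596. IGFBP4 had 31.9 and 0.142, IGFBP2 had 52.4 and 32.1, and IGFBP1 had 108 and 7 counts, all lower in H596 as IGFBP6 was. AQP3 had 39.5 and 180.4, while AQP5 was at a count of 0 in H596. The retinoid receptors that pair with or resemble RARG were RXRA, at 8.75 and 33.6, RXRB, at 18.05 and 30.2, RARA, at 7.51 and 8.19, and RARB, at a count of 0 in H2087 and 5.67 FPKM in H596. RXRG had a count of 0 in both.

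The cytokinesis partners of RACGAP1 ranged from -1.11 (CIT) to 1.82 (ANLN), and ESPL1's inhibitor securin, PTTG1, had 220 FPKM in H2087 and 71.2 in H596, the lowest difference of its list at -1.61, with STAG1 the highest at 1.02. The 8 cytochrome c oxidase assembly genes ranged from -0.90 (COX17) to 0.58 (COX10), all within 2-fold as COX14 was, and SP2, SP3 and SP4 differed by 0.62, 0.25 and 0.30, against 0.18 in SP1. The ULK1 complex genes ULK1, ATG13 and RB1CC1 differed by 0.80, 0.13 and 0.86, against -0.39 in ATG101. CREB1 differed by 0.43 and CREM by -1.69, against -0.26 in ATF1. The nuclear pore genes NUP93, NUP35, NUP205, NDC1 and NUP155 differed by -1.56, -1.02, -0.79, -0.39 and -0.39, against -0.70 in AAAS. The activin, BMP and TGF-beta receptors ranged from -0.99 (TGFBR2) to 1.35 (BMPR1B), with ACVR1B at -0.28. The ceramide synthases CERS1, CERS2, CERS4 and CERS6 differed by -2.26, -1.01, -0.36 and 0.27, against -1.07 in CERS5, and CERS3 had 0 and 7 counts. The iron genes FTL, FTH1, TFRC, STEAP3 and SLC40A1 differed by -3.01, -0.47, -0.42, -0.39 and 0.94, against -0.68 in SLC11A2.

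**Figure D5:**
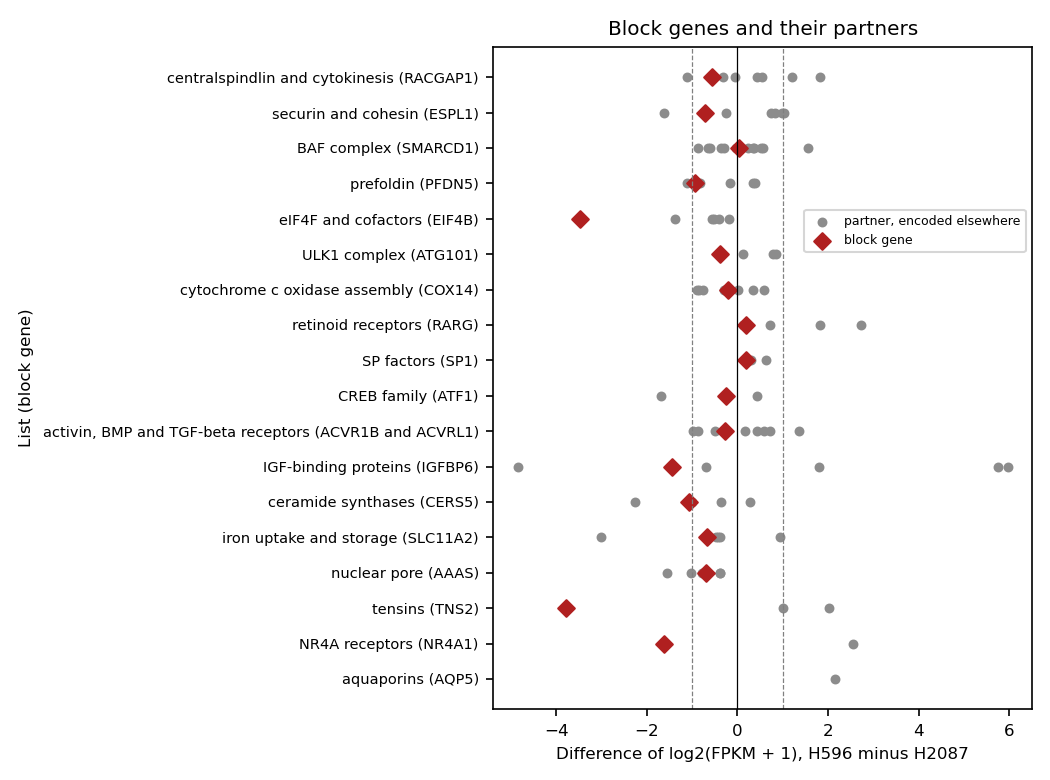
Difference of log2(FPKM + 1), H596 minus H2087, of block genes (diamonds) and of partner genes encoded elsewhere (grey points), with 1 row for each of 18 lists and dashed lines at 2-fold. EIF4B, TNS2, NR4A1, ATG101 and SP1 lie below every compared partner of their lists, which number 5, 2, 1, 3 and 3. SP1 was itself higher in H596, by 0.18. The same contrast chose the block and not the partners, so nothing is read from this order. SMARCD1 lies among its partners.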

How the data were processed

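Stranded mRNA libraries of H2087 and H596 cells were sequenced by the authors on an Illumina HiSeq4000. Per the submitters' processing notes, bcl2fastq 1.8.4, Trimmomatic, HISAT2 2.0.5 (hg19) and StringTie 1.3.3b were used. Estimated counts were deposited as whole numbers, and how they were rounded is not stated. The deposited FPKM values are relative to length and library size. From these, log2(FPKM + 1) was compared, H596 minus H2087, for genes whose mean FPKM reached 1, and 2-fold was the limit for a call, which understates changes of low genes. There was 1 library per line, so no test was made. Strand came from GENCODE release 44 lifted to GRCh37, found for 49 members. The members and lists were chosen with earlier results of these data known. Values are given for members with an FPKM of at least 100 in either library, the 8 with the lowest and the 8 with the highest differences, members of the role lists at 10 or more, and the partners at the ends of each list or all of a list of up to 5. Smaller members were added after their values were seen. Python 3.11.15, pandas 2.3.3, scipy 1.17.1 and edgeR 4.0.16 (TMM factors) were used.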

Additional observations from a re-analysis of the deposited data

How the results depend on the processing

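No paired analysis was possible because there was a single library of each line, and leaving out a library was impossible for that reason. The 14 members lower and 1 higher in H596 became 9 and 0 at a mean FPKM of at least 10 (23 members, METTL7A falling below the filter), 23 and 4 with the keratin genes, GALNT6 and ITGB7 put back (48 genes), 6 and 1 with 0.5 Mb taken off each edge (14 members), and 7 and 1 without members that overlap another listed gene (23 members, an alternative added after seeing the data). The 29 members lower by any amount became 12 and 18 under the last 2. All these had fewer or more genes by construction. The median difference of -0.69 was -0.81 after centring, -0.53 in TPM, -0.84 with TMM-scaled CPM, -0.35 without a filter, -0.59 by highest transcript, -0.82 with the left-out genes and -0.59 without overlapping genes, and the median of all genes, 0.12, was 0.30 in TPM and 0.01 with TMM. SMARCD1 changed sign after centring and with TMM, and MFSD5 did in TPM. CERS5, lower as a gene, was 0.35 higher by its highest transcript, and also fell within 2-fold in TPM. POU6F1 fell within 2-fold by highest transcript. The 4 members at an FPKM of 100 in H2087 were 7 in TPM, and the 1 in H596 was 3 in TPM, 3 at a threshold lowered to 50 and 0 at one raised to 200. Depth limits the members with few counts, such as ACVRL1.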

Other observations

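The window also holds 12 noncoding genes, of which 5 had a count of 0 in both libraries. LOC283335, a noncoding RNA from 53436973 to 53448222 that lies between EIF4B and the body of TNS2 and overlaps the latter, had 12.4 FPKM from 1696 counts in H2087 and 0.5004 from 82 counts in H596, 24.7-fold lower. TNS2 was 24.6-fold lower, and reads of their shared stretch cannot be assigned with certainty. KRT7-AS had 95 counts and the pseudogene KRT87P 75 counts in H2087, and both had 0 in H596, at least 37.3-fold and 29.5-fold lower. LOC101927318, which overlaps AQP5, had 3.31 FPKM in H2087 and 0.866 in H596. SNORD133, within LARP4, had 12 and 2 counts. LINC00592 had 4 and 6 counts.

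By strand, the 22 compared members with a plus-strand annotation had a median difference of -0.82 with 10 at least 2-fold lower, and the 12 on the minus strand had one of -0.63 with 4 lower. Over all genes compared 14.2% were lower, a share that was not taken by strand. The same contrast chose the window, and nothing is read from these counts. CSAD, which begins at 2 listed places, had 7.48 FPKM in H2087 and 2.96 in H596 from its upstream start and 3.81 and 4.66 from its downstream start. ACVR1B had a count of 0 in H2087 and 259 counts in H596 from its downstream start, a transcript with 22.8% of the gene's FPKM in H596.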
